A study of Mus musculus with 8 samples.

Results

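The 10 genes described here encode the machinery with which osteoclasts fuse, attach to bone and dissolve it: Acp5, Ctsk, Mmp9, Atp6v0d2, Oscar, Dcstamp, Ocstamp, Nfatc1, Itgb3 and Clcn7. They were chosen by symbol from the 32285 features of the count tables, and all 10 were present. Their levels were read from single-nucleus RNA sequencing of the petrous temporal bone (PTB), the part of the skull base that houses the inner ear and encloses a lobe of the cerebellum, from postnatal day (P) 5.5 mice. The groups were wild-type (WT) mice and their Tbx1+/- littermates, which are heterozygous for loss of the transcription factor gene Tbx1 in all tissues. Each genotype had 2 PTB libraries, 1 per batch, and each library pooled the bones of 5 mice, so the library and not the mouse or the nucleus was the replicate. The paraflocculus/flocculus (PF/F), the cerebellar lobes next to the bone, was sequenced in 4 libraries of the same design and served as a tissue without bone. P-values measure the spread between these libraries.

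Osteoclasts are multinucleated cells of the monocyte lineage that arise when precursors, driven by the cytokines CSF1 and RANKL, fuse on the bone surface. NFATc1 is the transcription factor that switches on much of their gene programme. DC-STAMP and OC-STAMP are membrane proteins needed for fusion, and the integrin alpha v beta 3 anchors the mature cell in a sealing zone. Inside that zone a proton pump and a chloride transporter acidify the bone surface, and cathepsin K and other proteases digest the exposed collagen.

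The authors' annotation placed 1559 of the 31076 annotated PTB nuclei in the osteoclast type. WT replicates 1 and 2 held 427 and 320 osteoclast nuclei, and Tbx1+/- replicates 1 and 2 held 455 and 357. The other 29517 annotated nuclei fell into 14 types of osteoblasts, chondrocytes, chondrocyte progenitors (CP1 to CP6) and connective tissue (CT1 to CT4), and 32101 barcodes had no annotation. The paper's bone atlas also held immune cells and neurons, which are not among these types. The 32101 barcodes can thus hold nuclei that passed its quality filter, and the other annotated nuclei hold no macrophage type. The median osteoclast nucleus held 4963 to 7105 unique molecular identifiers (UMIs, each standing for 1 captured RNA molecule) per library, against 3817 to 4677 for the other annotated nuclei. Any 2 PTB libraries shared 11 to 26 annotated cell barcodes. Levels are given in CPM, that is UMIs of a gene per 1000000 UMIs of the summed nuclei. Acp5 and Ctsk were markers by which the study described its osteoclasts, and the types were clustered on nuclear expression, so the contrast of osteoclasts with other types is a description without a test.

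The osteoclast label was set beside genes outside the 10, of which the first pair led or came second in its list of osteoclast genes by ratio. Tnfrsf11a, which encodes the RANKL receptor RANK, was at 905 ± 21.8 CPM (SD, n = 4 libraries) in osteoclasts and at 9.44 ± 1.00 CPM in the other annotated nuclei. Calcr, the calcitonin receptor gene, was at 165 ± 33.2 and 1.49 ± 0.55 CPM. Other genes of its list did not share this pattern, since Cd9 and Cd81, which encode widely expressed tetraspanins, were lower in osteoclasts, at ratios of 0.61 and 0.54. The 8 osteoblast markers summed to 5043 to 8429 CPM in osteoclasts and to 17386 to 21329 CPM in the other annotated nuclei, so matrix genes such as Col1a1 were present in osteoclast nuclei, at 1386 to 2775 CPM. Of the 9 macrophage markers, which summed to 178 to 305 CPM in osteoclasts, Cd68 alone made up 70.5 to 149 CPM, and Adgre1 at most 11.3 CPM. The 7 neutrophil markers summed to 14.7 to 62.7 CPM, with up to 2 of them at 0 in a library. The part of RNA from other cells in these levels was not tested. Tbx1 itself was at 11.7 and 15.5 CPM in WT osteoclasts and at 6.99 and 10.7 CPM in Tbx1+/- osteoclasts, from 19 to 40 UMIs per library.

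Positions are those of GENCODE vM21 (GRCm38). Acp5 occupies chr9:22126727-22135711 on the minus strand and Ctsk chr3:95499256-95509362 on the plus strand. Oscar lies at chr7:3609813-3616157 on the minus strand, Clcn7 at chr17:25133391-25162104 on the plus strand, Atp6v0d2 at chr4:19876841-19922605 on the minus strand and Dcstamp at chr15:39745930-39760938 on the plus strand. Mmp9 (chr2:164940780-164955850, plus strand) and Ocstamp (chr2:165393760-165400405, minus strand) share chromosome 2. Itgb3 lies at chr11:104608000-104670476 on the plus strand. Exons made up 5.93% of the span of Atp6v0d2, 6.99% of Nfatc1 and 9.45% of Itgb3, against 55.0% of Ocstamp. Because intronic reads were counted in nuclear RNA, a gene's span as well as its output enters its UMI count, and levels were compared here within a gene and not between genes. Acp5 overlaps 6530413G14Rik and Nfatc1 overlaps Gm50211, each on the opposite strand. The strand setting of the counting is not given in the sources used here, so how UMIs in these overlaps were divided between a gene and its antisense partner is uncertain.

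Promoter windows, 250 bases before to 50 bases after a RefSeq start (GRCm38.p6), were matched for 4 of the 10 genes, namely Oscar, Ctsk, Clcn7 and Acp5. Where a gene had several starts, the window nearest to the GENCODE start is shown. They are shown because the transcription factors that drive osteoclast genes, NFATc1, PU.1 and MITF, are known to bind short motifs near such starts. Capitals mark GGAAA (the NFAT core), GAGGAA (a PU.1 core) and CANGTG (an E-box pattern) on either strand, 5′ to 3′ along the gene. CANGTG includes CACGTG, a site of MITF and its TFE relatives, but is wider, so a match need not be such a site. GGAAA and GAGGAA can overlap.
Oscar, chr7:3616108-3616407, minus strand: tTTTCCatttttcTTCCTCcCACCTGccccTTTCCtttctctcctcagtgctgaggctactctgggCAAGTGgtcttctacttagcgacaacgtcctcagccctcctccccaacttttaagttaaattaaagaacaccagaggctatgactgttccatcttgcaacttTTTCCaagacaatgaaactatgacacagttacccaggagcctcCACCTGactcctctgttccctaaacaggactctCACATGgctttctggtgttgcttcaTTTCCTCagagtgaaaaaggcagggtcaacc
Ctsk, chr3:95498960-95499259, plus strand: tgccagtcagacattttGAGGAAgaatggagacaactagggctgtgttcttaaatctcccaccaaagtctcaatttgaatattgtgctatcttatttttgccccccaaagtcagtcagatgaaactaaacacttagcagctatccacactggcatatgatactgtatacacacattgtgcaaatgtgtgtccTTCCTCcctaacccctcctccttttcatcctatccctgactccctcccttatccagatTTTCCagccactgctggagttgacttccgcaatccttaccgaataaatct
Clcn7, chr17:25133141-25133440, plus strand: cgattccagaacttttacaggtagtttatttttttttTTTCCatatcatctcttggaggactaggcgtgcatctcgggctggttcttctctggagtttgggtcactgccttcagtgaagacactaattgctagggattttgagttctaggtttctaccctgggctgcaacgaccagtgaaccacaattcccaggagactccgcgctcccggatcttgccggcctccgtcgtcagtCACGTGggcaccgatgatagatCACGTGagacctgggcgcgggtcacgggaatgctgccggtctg
Acp5, chr9:22135697-22135996, minus strand: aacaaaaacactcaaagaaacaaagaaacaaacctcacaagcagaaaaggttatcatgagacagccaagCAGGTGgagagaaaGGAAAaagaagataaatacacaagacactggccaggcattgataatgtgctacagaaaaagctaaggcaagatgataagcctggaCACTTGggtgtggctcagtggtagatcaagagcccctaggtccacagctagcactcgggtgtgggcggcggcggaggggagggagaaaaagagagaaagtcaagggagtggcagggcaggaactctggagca
The Oscar window held 4 matches to GGAAA, 4 to CANGTG and 2 to GAGGAA. The Ctsk window held 2 matches to GAGGAA, 1 to GGAAA and 0 to CANGTG. Both matches to CANGTG in the Clcn7 window had the letters CACGTG, with first bases at -15 and 8 from the start, and the Acp5 window held 2 matches to CANGTG and 1 to GGAAA. Of all 32851 promoter windows, 61.3% held GGAAA, 44.9% CANGTG, 28.3% GAGGAA and 7.15% CACGTG. None of the 4 windows held the AP-1 letters TGANTCA or the TATA letters TATAAA, which 7.81% and 13.6% of all windows held. A match is a description of the letters and does not show binding.

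The genes were first compared between osteoclasts and the other annotated nuclei of the same library. All 10 genes were more than 2-fold higher in osteoclasts in each of the 4 libraries, a ratio that 10.4% of the 13191 genes tested in osteoclasts reached. For 6 of the 10 genes the ratio was above 10 in every library, against 2.22% of genes. The median ratio over all 13191 genes was 0.906. These genes had passed a filter on low counts in osteoclasts, which leaves out genes low there.

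Oscar, the collagen-binding co-receptor that boosts RANK signalling, had the highest geometric mean ratio of the 10. It was at 463 and 576 CPM in WT osteoclasts of replicates 1 and 2 and at 485 and 686 CPM in Tbx1+/- osteoclasts. In the other annotated nuclei of the same libraries it was at 5.13 and 2.81 CPM and at 5.68 and 5.05 CPM. The geometric mean of the 4 ratios was 121 (85.3 to 205), and the highest ratio came from WT replicate 2, the library in which the level outside osteoclasts was lowest.

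Atp6v0d2 encodes an osteoclast subunit of the proton pump that also takes part in fusion. It was at 2201 and 2647 CPM in WT osteoclasts and at 2518 and 2636 CPM in Tbx1+/- osteoclasts, and at 14.4 to 29.3 CPM in the other annotated nuclei. Its ratio was 116 (80.1 to 184). In both Tbx1+/- libraries it was above that of Oscar, 86.0 against 85.3 in replicate 1 and 142 against 136 in replicate 2. The osteoclast values of the genotypes overlapped.

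Dcstamp and Ocstamp are the fusion genes. Dcstamp was at 316 and 363 CPM in WT osteoclasts and at 285 and 366 CPM in Tbx1+/- osteoclasts, with a ratio of 71.4 (47.5 to 121). Ocstamp was at 124 and 108 CPM in WT and at 105 and 117 CPM in Tbx1+/- osteoclasts, with a ratio of 22.2 (17.0 to 34.1). Both genes spread less between libraries in osteoclasts than outside them, where Dcstamp was at 3.01 to 6.02 CPM and Ocstamp at 3.17 to 7.28 CPM. Ocstamp had the fewest UMIs of the 10 genes in osteoclasts, 279 to 317 per library, so that counting error alone gives its level in WT replicate 1 a 95% exact Poisson interval of 110 to 139 CPM.

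Nfatc1, the master transcription factor of the lineage, was at 893 and 1151 CPM in WT osteoclasts and at 1051 and 1072 CPM in Tbx1+/- osteoclasts. Its ratio of 22.8 was the steadiest of the 10, from 21.1 to 25.3. Itgb3, the beta 3 chain of the sealing zone integrin, was at 590 and 668 CPM in WT and at 741 and 725 CPM in Tbx1+/- osteoclasts, with a ratio of 17.5 (14.1 to 22.2). Itgb3 was the only 1 of the 10 genes whose osteoclast levels did not overlap between the genotypes, both Tbx1+/- libraries being higher, and 14.7% of the 13191 tested genes were higher without overlap.

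Ctsk encodes cathepsin K, the collagen-cutting protease of the resorption pit. It was at 5416 and 4434 CPM in WT osteoclasts and at 3685 and 4890 CPM in Tbx1+/- osteoclasts, and its ratio was 12.7 (9.24 to 17.9). Clcn7, the chloride-proton exchanger of lysosomes and of the ruffled border, was at 276 and 279 CPM in WT and at 310 and 234 CPM in Tbx1+/- osteoclasts, with a ratio of 10.1 (8.85 to 11.1). Acp5, which encodes the tartrate-resistant acid phosphatase TRAP, was at 1762 and 1039 CPM in WT and at 1416 and 1206 CPM in Tbx1+/- osteoclasts. Its ratio was 6.84 (6.17 to 8.84). Mmp9, the gelatinase, was at 1455 and 784 CPM in WT and at 1246 and 977 CPM in Tbx1+/- osteoclasts and had the lowest ratio, 3.79 (3.43 to 4.16). Acp5 and Mmp9 thus differed between WT replicates 1 and 2 by more than between the genotype means. This held for the other genes as well, except Itgb3 and Clcn7. The order of the 4 libraries for Acp5 and Mmp9 ran from WT replicate 1 through the Tbx1+/- libraries to WT replicate 2. It was the same in osteoclasts and in the other annotated nuclei, where Acp5 ran from 284 to 118 CPM and Mmp9 from 400.0 to 188 CPM.

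**Figure D1:**
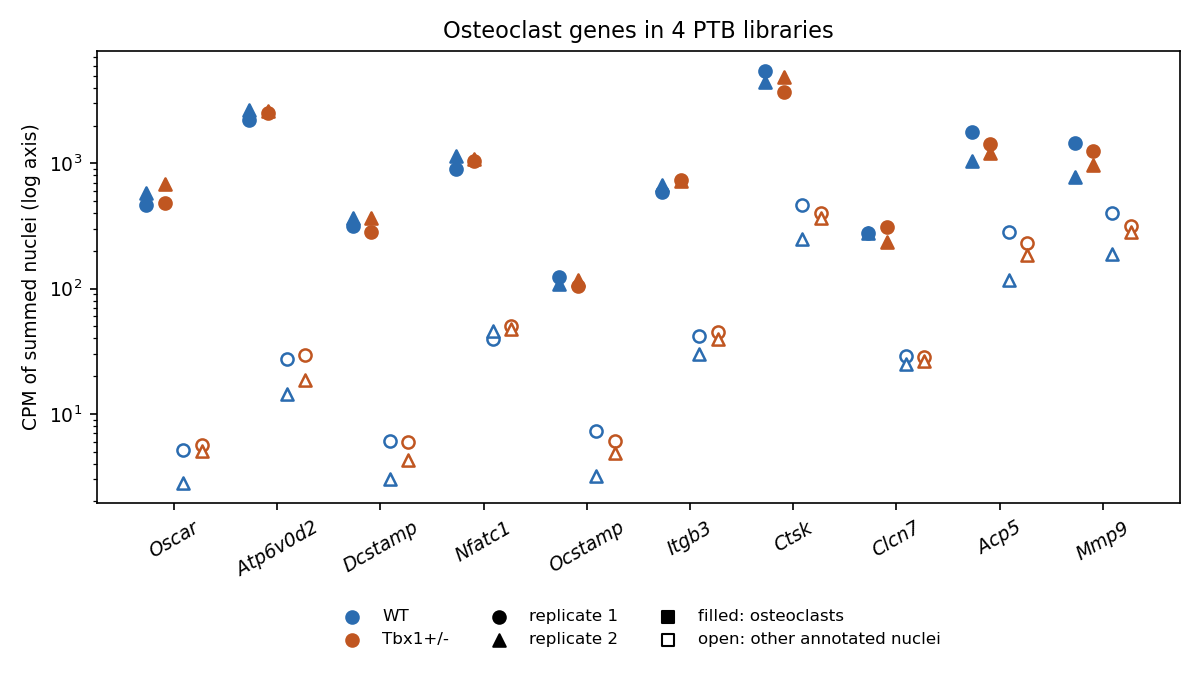
Level of each gene in CPM of summed nuclei (log axis) in the 4 PTB libraries, with filled symbols for osteoclasts, open symbols for the other annotated nuclei, colours for genotype and shapes for replicate. Filled symbols lie above open ones for all 10 genes, with the widest mean gap at Oscar (ratio 121) on the left and the narrowest at Mmp9 (3.79) on the right.

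Across the 14 other types, mean levels of 7 of the 10 genes ranged by 1.52- to 2.71-fold, less than those of the other 3. Mean Ctsk levels ran from 326 CPM in CT3 to 496 CPM in matured chondrocytes, a 1.52-fold range, and those of Acp5 from 170 to 308 CPM in the same types, a 1.81-fold range. Clcn7 (21.7 to 36.9 CPM), Atp6v0d2 (18.7 to 33.7 CPM), Oscar (3.48 to 7.72 CPM), Dcstamp (3.37 to 9.15 CPM) and Ocstamp (3.43 to 8.91 CPM) ranged by 1.70- to 2.71-fold. Oscar, Dcstamp and Ocstamp had only 677, 706 and 786 UMIs in all other annotated nuclei. Their ranges over single types thus rest on few counts. Expressed as a percent of the osteoclast level, the level of these 7 genes in CP1 was 0.84% for Oscar, 0.92% for Atp6v0d2, 1.90% for Dcstamp, 5.28% for Ocstamp, 7.82% for Ctsk, 9.69% for Clcn7 and 14.3% for Acp5. The part of free RNA in the levels outside osteoclasts was not tested.

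**Figure D2:**
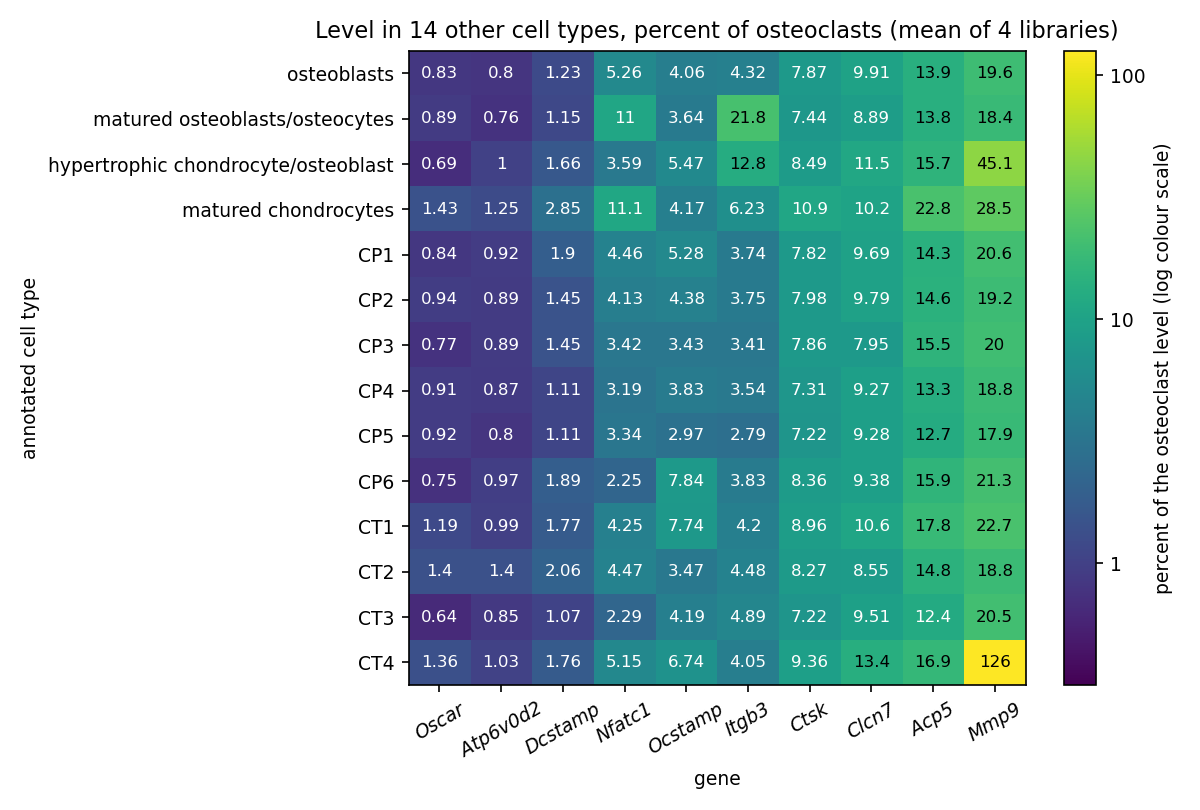
Level of the 10 genes (columns) in the 14 other annotated PTB types (rows) as a percent of the osteoclast level of the same library, mean of 4 libraries, on a log colour scale. Most columns vary less from top to bottom than those of Mmp9, Itgb3 and Nfatc1. High values include Mmp9 in CT4 (126%) and the hypertrophic type (45.1%), Itgb3 in matured osteoblasts/osteocytes (21.8%) and the hypertrophic type (12.8%), and Nfatc1 in matured osteoblasts/osteocytes and matured chondrocytes (11.1% in the latter).

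The remaining 3 genes, Mmp9, Itgb3 and Nfatc1, were each raised in particular types outside osteoclasts. Mmp9 in CT4 was at 2112 and 1045 CPM in WT replicates 1 and 2 and at 1321 and 1165 CPM in Tbx1+/- replicates 1 and 2. CT4 thus exceeded osteoclasts of the same library in all 4 libraries, by 1.06- to 1.45-fold. The hypertrophic chondrocyte/osteoblast type came next, at 499 CPM on average, with 720 and 395 CPM in WT and 426 and 455 CPM in Tbx1+/- libraries. Mmp9 is known to be made by cells at the border between hypertrophic cartilage and new bone as well as by osteoclasts. Matured chondrocytes followed at 314 CPM, and CP5 was lowest at 208 CPM.

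Most CT4 nuclei with Mmp9 held no Atp6v0d2. Of CT4 nuclei, 33.5% to 57.9% per library held 5 or more Mmp9 UMIs, against 50.6% to 57.4% of osteoclasts. Of those CT4 nuclei 11.2% to 16.9% held an Atp6v0d2 UMI, and of the osteoclasts with as much Mmp9 97.6% to 99.5% did. Atp6v0d2 in CT4 as a whole was at 1.03% of its osteoclast level and Ctsk at 9.36%, close to their levels in the other types. The median CT4 nucleus held 3964 to 4413 UMIs. The 9 macrophage markers summed to 308 to 409 CPM in CT4 and to 360 to 431 CPM in the hypertrophic type. In the other annotated nuclei as a whole, which include both types, they summed to 146 to 196 CPM. F13a1 alone made up 66.4 to 101 CPM there. The sum was 213 to 320 CPM in matured osteoblasts/osteocytes, 186 to 307 CPM in matured chondrocytes and 85.6 to 120 CPM in osteoblasts. The sums do not show which of the 9 markers were raised, and their part in the Mmp9 level was not tested.

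Itgb3 was highest outside osteoclasts in matured osteoblasts/osteocytes, at 173 and 123 CPM in WT and 144 and 145 CPM in Tbx1+/- libraries, which was 21.8% of the osteoclast level. The hypertrophic type followed at 86.4 CPM (74.0 to 95.4), and these ranges did not overlap. In osteoblasts it was at 22.7 to 35.2 CPM. Nfatc1 was highest in matured chondrocytes (116 CPM, 93.9 to 141) and matured osteoblasts/osteocytes (115 CPM, 98.3 to 122), whose ranges overlapped, and was at 46.6 to 59.0 CPM in osteoblasts and at 11.8 to 27.7 CPM in CP6. The matured chondrocyte values rest on 22 to 85 Nfatc1 UMIs per library. The 5 erythroid markers summed to 929 to 13308 CPM in matured chondrocytes, against 457 to 917 CPM in the other annotated nuclei as a whole, and their part in the Nfatc1 level was not tested.

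**Figure D3:**
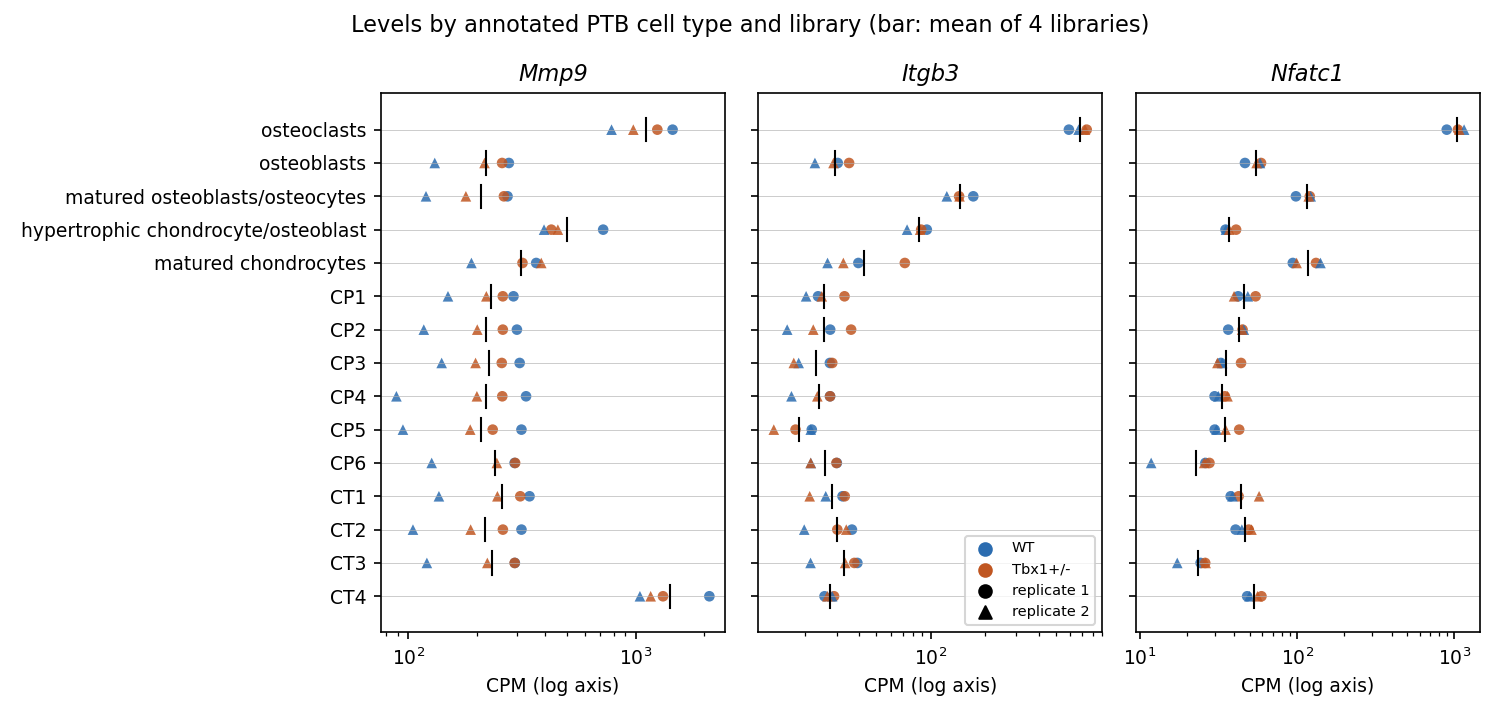
Mmp9, Itgb3 and Nfatc1 in CPM (log axis) in each annotated PTB type and library, with colours for genotype, shapes for replicate and bars for the mean of 4 libraries. Mmp9 in CT4 reaches 1045 to 2112 CPM, Itgb3 in matured osteoblasts/osteocytes 123 to 173 CPM and Nfatc1 in matured chondrocytes 93.9 to 141 CPM.

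In the PF/F, which has its own microglia but no bone, the genes given here over all annotated nuclei were near 0 but for Clcn7. Oscar, Nfatc1 and Itgb3 are not reported here over all nuclei. Over all annotated PF/F nuclei Acp5 was at 0.18 ± 0.05 CPM, Atp6v0d2 at 0.38 ± 0.22 CPM, Dcstamp at 0.07 ± 0.03 CPM and Ocstamp at 0.04 ± 0.04 CPM (SD, n = 4 libraries). Ctsk was at 2.26 ± 0.25 CPM and reached 46.5 ± 15.2 CPM in meningeal nuclei. Mmp9 was at 0.60 ± 0.14 CPM, and its highest mean, 88.4 ± 48.4 CPM in pericytes, rests on 17 UMIs. Clcn7, which lysosomes of many cell types use, was the exception, at 20.9 ± 0.81 CPM in the PF/F and 27.2 ± 1.71 CPM in the other annotated PTB nuclei. Immune nuclei of the PF/F held Nfatc1 at 39.3 ± 2.69 CPM, Clcn7 at 42.8 ± 13.5 CPM and Atp6v0d2 at 24.3 ± 15.9 CPM, the last from 29 UMIs.

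The share of each gene's annotated UMIs that came from osteoclasts followed these ratios. Osteoclasts gave 83.9% to 94.5% of Oscar UMIs per library, 82.2% to 93.9% of Atp6v0d2 UMIs and 75.2% to 91.0% of Dcstamp UMIs. They gave 56.5% to 67.8% for Nfatc1, 49.6% to 74.0% for Ocstamp, 44.9% to 65.0% for Itgb3, 39.9% to 59.9% for Ctsk and 35.6% to 48.0% for Clcn7. For Acp5 the share was 26.4% to 42.5% and for Mmp9 17.4% to 25.8%. In every library most annotated UMIs of Acp5, Mmp9 and Clcn7 were thus counted outside osteoclasts. In each case osteoclasts were 4.28% to 5.57% of the annotated nuclei. With the unannotated barcodes counted in as well, the osteoclast shares were lower for all 10 genes, at 55.4% to 77.7% for Oscar, 53.6% to 78.3% for Atp6v0d2, 38.9% to 73.0% for Dcstamp, 14.9% to 35.6% for Ctsk, 8.77% to 21.7% for Acp5 and 6.90% to 13.3% for Mmp9.

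Single nuclei were counted by how many of the 10 genes they held. Such counts follow from each gene's own share of nuclei and from the label. Whether the genes occurred together beyond that was not tested. Of the 1559 osteoclast nuclei, 1454 held a UMI of at least 5 of the 10 genes, 91.3% to 95.2% per library, and 0 held none of them. Of the 29517 other annotated nuclei 1466 did, 2.63% to 6.19% per library. With every nucleus thinned to 2000 UMIs, the shares were 79.7% to 87.2% and 0.255% to 0.733%, leaving out 37 osteoclast and 1017 other nuclei with fewer UMIs. Thinned, Atp6v0d2 was found in 90.0% of osteoclasts and 4.37% of other nuclei on average, Ctsk in 93.2% to 95.9% per library and 39.7% to 55.5%, Acp5 in 82.2% and 33.2%, and Oscar in 54.9% and 1.05%. As counted, the Atp6v0d2 shares were 93.2% and 9.02%, the Ctsk shares 98.2% and 76.1%, the Acp5 shares 95.8% and 56.3% and the Oscar shares 74.7% and 2.14%. A share of nuclei with a UMI depends on the gene's level and on free RNA, so these shares are set side by side within a gene and not between genes. The part of free RNA in the shares outside osteoclasts was not tested.

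**Figure D4:**
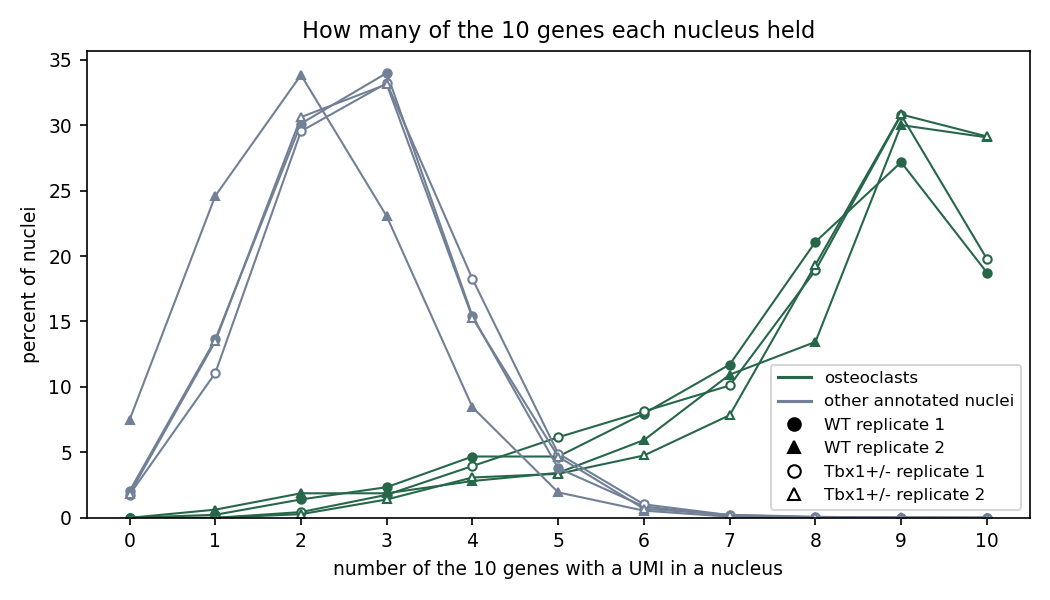
Percent of nuclei (vertical axis) by how many of the 10 genes had a UMI in the nucleus (horizontal axis), 1 line per PTB library, in osteoclasts (green) and the other annotated nuclei (grey). Osteoclast lines peak at 9 genes and the grey lines peak at 2 or 3 genes.

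Barcodes without an annotation also carried the genes. A UMI of at least 5 of the genes was held by 2195 of 32101 unannotated barcodes, 4.89% to 7.31% per library. By the same rule it was 1454 of 1559 osteoclasts and 1466 of 29517 other annotated nuclei. A narrower alternative took the 3 genes with the highest ratios, and the number of unannotated barcodes depends on this choice. Atp6v0d2, Oscar and Dcstamp were found together in 926 of 1559 osteoclasts (52.7% to 67.5% per library). They were found together in 11 of 29517 other annotated nuclei and in 218 of 32101 unannotated barcodes. The unannotated barcodes with these 3 genes had a median of 6655 to 27051.5 UMIs per library, against 5861 to 8212 for such osteoclasts. More UMIs than any osteoclast of the library were held by 17 of 91 and 17 of 28 in WT replicates 1 and 2. In Tbx1+/- replicates 1 and 2 it was 24 of 37 and 30 of 62. The study's quality filter removed nuclei with outlying total UMIs before annotation, and its part in these sizes was not tested. The number of nuclei behind these barcodes was not tested. Unannotated barcodes in general were grouped by the marker list with most UMIs, with the osteoclast list left out. Macrophage markers led 445 of them. In these Clcn7 was at 74.2 ± 14.3 CPM, Nfatc1 at 92.2 ± 21.6 CPM and Atp6v0d2 at 33.8 ± 11.1 CPM. There Ctsk was at 1802 CPM in WT replicate 1 and at 214 to 362 CPM in the other 3 libraries, and Acp5 at 930.3 CPM and at 137 to 217 CPM. Mmp9 was at 150.2 to 647 CPM and Itgb3 at 21.0 to 40.6 CPM. Dcstamp was at 2.33 to 20.3 CPM, Ocstamp at 2.33 to 25.7 CPM and Oscar at 4.67 to 5.78 CPM. Over all libraries these last values rest on only 19 Dcstamp, 24 Ocstamp and 10 Oscar UMIs. In the 29501 barcodes led by osteoblast markers Atp6v0d2 was at 73.7 ± 21.1 CPM, Nfatc1 at 63.5 ± 9.29 CPM and Clcn7 at 35.6 ± 2.60 CPM. Annotated osteoclasts themselves held osteoblast markers at 5043 to 8429 CPM and macrophage markers at 178 to 305 CPM. An osteoclast without annotation could thus be led by osteoblast markers, and these groups do not name cell types. Which list leads in single annotated osteoclasts was not tested.

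The genotype comparison asked whether loss of 1 Tbx1 copy was accompanied by a change of the resorption and fusion genes. With edgeR's quasi-likelihood test and Benjamini-Hochberg adjustment over 13191 genes, 0 of the 10 genes was called in osteoclasts (adjusted p under 0.05 and above 1.5-fold), and the background was 0%, that is 0 genes. An unadjusted p under 0.05 was reached by 288 genes, none of them of the 10. DESeq2 called 0 genes and had 65 at that p. With the replicate block edgeR called 3 genes. With 1 library left out it called 206 genes (without WT replicate 1), 43 (without WT replicate 2), 1 (without Tbx1+/- replicate 2) or 0 (without Tbx1+/- replicate 1), and 0 of the 10 genes in each of these fits. Without WT replicate 1 Mmp9 had an adjusted p of 0.0175 (edgeR) at a log2 change of 0.50, which is below 1.5-fold. The log2 changes of the 10 genes lay between -0.20 and 0.22, with a median of -0.03, and that of all genes was 0.01. Itgb3, higher in Tbx1+/- osteoclasts by 0.22 ± 0.11 (log2, SE, 95% interval -0.04 to 0.48), had the smallest unadjusted p of the 10, 0.0889 (edgeR), and an adjusted p of 1.00. It was higher in both batches, by 0.33 and 0.12 on the log2 scale.

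The intervals below come from the test without a batch term. For Atp6v0d2 the log2 change was 0.09 with a 95% interval of -0.18 to 0.36, and for Nfatc1 it was 0.05 (-0.26 to 0.37). For Ctsk it was -0.20 (-0.61 to 0.20), for Oscar 0.18 (-0.29 to 0.64), for Acp5 -0.10 (-0.66 to 0.46) and for Mmp9 -0.02 (-0.67 to 0.63). Dcstamp (-0.06), Ocstamp (-0.06) and Clcn7 (-0.03) lay between these in width. Within batches 2 of the 10 genes, Itgb3 and Oscar, were higher in both Tbx1+/- libraries, as were 26.1% of all tested genes, while Ctsk was lower in the Tbx1+/- library of batch 1 by 0.56 and higher in batch 2 by 0.14. With the replicate block the intervals in osteoclasts narrowed, for Mmp9 to -0.22 to 0.31 and for Acp5 to -0.32 to 0.21. Itgb3 then had a log2 change of 0.22 with an interval of 4.5e-05 to 0.44 in osteoclasts (edgeR, unadjusted p of 0.04996) and of 0.26 (0.0032 to 0.52, unadjusted p of 0.0479) in the other annotated nuclei. Its adjusted p was 0.999 and 0.914, and 596 of the 13191 and 1071 of the 19999 genes had an unadjusted p under 0.05 in these fits. With 4 pools these values do not show that the genotypes are alike.

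In the other annotated nuclei all 10 genes had log2 changes above 0, from 0.02 (Clcn7) to 0.43 (Oscar), as did 51.6% of all tested genes, and 0 of 10 was called, as were 0 of 19999 genes (0%, edgeR). Here 217 genes reached an unadjusted p under 0.05, and DESeq2 called 0 genes and had 94 at that p. For 6 of the 10 genes the batches differed in sign, as for Acp5, which was lower in the Tbx1+/- library by 0.31 in batch 1 and higher by 0.67 in batch 2, and for Mmp9, by 0.35 and 0.60. Oscar (0.15 and 0.85), Itgb3 (0.11 and 0.40), Atp6v0d2 (0.09 and 0.37) and Nfatc1 (0.33 and 0.06) had log2 changes above 0 in both batches, as did 24.3% of all tested genes. The interaction of genotype with class, which compares the genotype change in osteoclasts with that in the other nuclei, called 1 of 19193 genes (0.00521%), Lipf, and 0 of the 10. Ctsk was nearest, with a difference of -0.39 ± 0.17 (log2, SE), an unadjusted p of 0.0355 and an adjusted p of 1.00 (edgeR). An unadjusted p under 0.05 was reached by 759 of the 19193 genes.

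**Figure D5:**
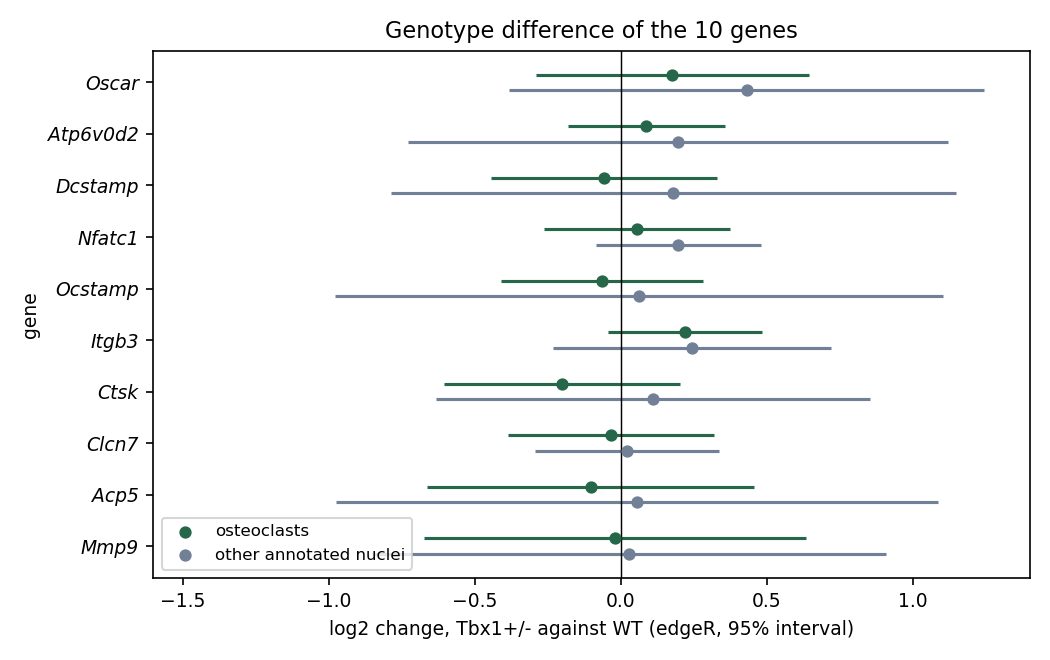
Log2 change of each gene in Tbx1+/- against WT libraries with its 95% interval (edgeR), in osteoclasts (green) and in the other annotated nuclei (grey), n = 2 libraries per genotype. All 20 intervals, from the test without a batch term, include 0, and those in osteoclasts are narrower except for Nfatc1 and Clcn7.

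Of the types in which single genes stood out, CT4, the hypertrophic type and matured osteoblasts/osteocytes were tested likewise, a choice made after their levels were seen. Mmp9 in CT4 had a log2 change of -0.37 ± 0.28 (SE) and in the hypertrophic type -0.36 ± 0.26, with adjusted p of 0.999 and 1.00 (edgeR). In CT4 0 of 10199 genes (0%) was called and in the hypertrophic type 0 of 15120 (0%), with 276 and 273 at an unadjusted p under 0.05. Itgb3 in matured osteoblasts/osteocytes had a log2 change of -0.08 ± 0.20 and Nfatc1 of 0.09 ± 0.19 (adjusted p of 0.999 in both), where 0 of 10508 genes (0%) was called and 239 were at an unadjusted p under 0.05. Of the 10 genes 8, 10 and 7 could be tested in these types, since Oscar and Dcstamp in CT4 and also Ocstamp in matured osteoblasts/osteocytes did not pass the filter on low counts. With the replicate block 3, 0 and 4 genes were called, none of the tested members among them. Of these members only Ocstamp in CT4 had an unadjusted p under 0.05 (0.0181, edgeR, adjusted p of 0.999). Its log2 change was -1.82 ± 0.65, from 11 and 12 UMIs in WT and 4 and 2 UMIs in Tbx1+/- libraries. It passed the filter on low counts through the WT libraries, where it was higher, so this p is no support for a difference. In CT4 the levels of Mmp9 in the Tbx1+/- libraries lay between those of the WT libraries.

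Osteoclasts were 4.28% and 5.35% of annotated nuclei in WT replicates 1 and 2 and 5.23% and 5.57% in Tbx1+/- replicates 1 and 2. The means differed by 0.582 percentage points, with an exact permutation p of 0.667 (two-sided), where 0.333 is the smallest p that 2 against 2 libraries allow. Within batches the difference was 0.948 and 0.216 points. In sums of nuclei over all types, fewer osteoclasts and less RNA per osteoclast cannot be told apart, which is why the genes were compared within the type.

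The partners of the 10 genes were read from 6 lists, and none of their tested genes was called between genotypes in osteoclasts. Among the other 18 genes of the proton pump and acid secretion, 15 were more than 2-fold higher in osteoclasts in all 4 libraries and the median ratio was 6.76. Atp6v1b2, a cytoplasmic pump subunit, led at 1316 ± 138 CPM (ratio 19.1), followed by Snx10 (17.0) and Plekhm1 (13.4), which serve vesicle traffic to the ruffled border. Of 15 genes of RANK, CSF1 and co-receptor signalling 11 passed that ratio, led by Tnfrsf11a (96.2), the kinase gene Syk (50.8) and Csf1r (25.9), the CSF1 receptor gene. Of 11 tested transcription factors 8 did, with Prdm1 at a ratio of 76.4, Spi1, which encodes PU.1, at 39.3 and Jdp2 at 25.4. Cebpa and Irf8 of this list, at ratios of 0.80 and 0.77, did not pass the filter on low counts in osteoclasts.

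Of 12 genes of the integrin, podosome and sealing zone 6 passed the ratio. Ptk2b, the kinase gene of PYK2, led at 36.2, then Fermt3 at 24.4, and Itgav, the alpha v partner of Itgb3, at 13.7 with 2799 ± 338 CPM. Of 9 tested fusion and cell surface genes 5 passed, with Siglec15 at 160.0, Calcr at 115 and Sirpa at 9.97. Mfsd7a, at a ratio of 0.74, did not pass the filter on low counts. The other proteases and inhibitors differed from Ctsk, since 2 of 9 tested genes passed and the median ratio was 1.42, led by Ctsz (2.87), Cstb (2.68) and Ctsb (2.11). Calcr had a log2 change of 0.47 ± 0.13 (SE) in Tbx1+/- osteoclasts, with an adjusted p of 1.00 (edgeR). The ratios of the lists stand beside 10.4% of all tested genes above 2 and a median of 0.906. Mmp12, a protease gene at 0 CPM in osteoclasts, was also left out by the filter. The filter on osteoclast counts leaves out genes low in osteoclasts, both from the counts of the lists and from this background.

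The genes most like 9 of the 10 were read from Pearson's r of log2(CPM + 1) over the 15 annotated types, a description in which 1 type, osteoclasts, sets most of the likeness. Acp5 was most like Ctsk (r = 0.99), and Ctsk was most like 6530413G14Rik, the RNA that overlaps Acp5 on the other strand, at 56.4 CPM in osteoclasts. Ctsk, Atp6v0d2, Oscar and Dcstamp were close to each other (r = 0.98 to 0.99). Oscar was most like Pdgfb and Atp6v0d2 most like 4930471E19Rik, a long non-coding RNA, with Pdgfb second. Dcstamp was most like Ctsk, and Clcn7 most like C730036E19Rik and Faiml. Ocstamp was most like Npc2 and Hexa (r = 0.98 and 0.97), both lysosomal genes. Nfatc1 (Gm47754, r = 0.96, with Gm50211 inside its own locus second) and Mmp9 (Irf5, r = 0.95) had looser best matches, and Mmp9 had r of 0.53 to 0.71 with the other 9 genes. Since the division of reads between 6530413G14Rik and Acp5 and between Gm50211 and Nfatc1 is uncertain, the levels of these antisense RNAs are too, and the part of shared reads in their likeness was not tested.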

How the data were processed

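RNA of PTB and PF/F nuclei was counted from its 3′ ends in droplets, in 8 libraries. The deposited matrices hold raw UMI counts, which the authors produced with Cell Ranger 7.0.0, introns included, on mm10 (version and build per the labels). They hold the barcodes Cell Ranger kept and are without the later SoupX correction, so free RNA remains in all levels. Types were taken from the deposited annotation. That of the PF/F also holds expected counts made by the authors after correction, which were not used here. No doublet removal is described, and leaving out the 8% of nuclei with most UMIs per library was tried. Each PTB library had 66835028 to 88677309 UMIs, of which osteoclasts held 2393064 to 2719871. The Poisson interval covers counting error only, and intervals of log2 changes rest on the spread between libraries.

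UMIs were summed per library and type (Python 3.11.15; numpy 2.4.6; pandas 2.3.3; scipy 1.17.1). Genotypes were compared with edgeR 4.0.16 (filterByExpr, TMM, quasi-likelihood test) in R 4.3.3, and with DESeq2 1.42.0. Calls needed an adjusted p under 0.05 and a change above 1.5-fold. SE is the log2 change over the square root of F. The scripts were tested on simulated data, in which 200 genes were changed by 1 on the log2 scale. The main edgeR test called 14.5% of them in osteoclasts and 45% in the other nuclei, with 4 and 14 unchanged genes. The 200 genes were drawn at random from all genes that passed the filter, and no batch difference was simulated. These shares thus do not give the recovery for the 10 members. The members and lists were chosen with earlier results of these data known. Named genes are the 10 members, Tbx1, the 3 genes of each list with the highest ratio and the 3 most like each member (those of Itgb3 are not reported here). Others, such as markers and genes called outside the lists, were named after their values were seen. The study describes separate batches, and the replicate numbers in the sample titles were taken here to mark them. As a check, deviations of same-numbered libraries from their genotype's mean correlated across genes at 0.328 in osteoclasts and 0.550 in the other nuclei. The main test had no batch term. Alternatives were the replicate block, RLE factors, no filter, at least 2000 genes per nucleus, and each library left out. Of the features, 32158 (99.6%) were found in GENCODE vM21.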

Additional observations from a re-analysis of the deposited data

How the results depend on the processing

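With the replicate block edgeR called 3 genes in osteoclasts (Bpifa1, Col22a1 and Lifr) and 0 in the other annotated nuclei, and it changed no call of the 10 genes. DESeq2, RLE factors, no filter on low counts, leaving out the 8% of nuclei with most UMIs and at least 2000 genes per nucleus gave 0 called genes in both classes. Leaving out 1 library gave 0 to 206 called genes in osteoclasts, and the 1 gene called without Tbx1+/- replicate 2 was Cntn5. It gave 0 in the other nuclei. The lone library is then assumed to vary like the others. The cause was not tested.

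The log2 change of Mmp9 in osteoclasts turned to 0.043 with the block and to 0.0086 with at least 2000 genes per nucleus. In the other nuclei Clcn7 (-0.021) and Ocstamp (-0.0092) turned without the nuclei with most UMIs. With 1 library left out, 11 of 40 member changes in osteoclasts turned sign, over ranges of -0.44 to 0.33 (Acp5), -0.043 to 0.21 (Atp6v0d2), -0.25 to 0.13 (Clcn7), -0.28 to 0.11 (Dcstamp), -0.41 to 0.50 (Mmp9), -0.12 to 0.23 (Nfatc1), -0.17 to 0.034 (Ocstamp) and -0.13 to 0.40 (Oscar). In the other nuclei 13 of 40 did, over -0.45 to 0.83 (Acp5), -0.20 to 0.74 (Atp6v0d2), -0.082 to 0.13 (Clcn7), -0.27 to 0.63 (Ctsk), -0.23 to 0.78 (Dcstamp), -0.42 to 0.67 (Mmp9) and -0.41 to 0.80 (Ocstamp). No member was called under any of these settings, and only Mmp9 in osteoclasts without WT replicate 1 had an adjusted p under 0.05 (0.0175, edgeR), at a log2 change of 0.50, below 1.5-fold. The share of osteoclasts differed by 0.451 to 0.582 points under the other filters, denominator and block, and by 0.046 to 1.12 points with 1 library left out. Against unannotated barcodes the log2 ratio of osteoclasts was lower for all 10 genes, from 1.46 for Mmp9 to 5.34 for Oscar. Unannotated barcodes with osteoclast genes numbered 2195 by the rule of at least 5 genes. By Atp6v0d2, Oscar and Dcstamp together they numbered 218. Relative to the level, counting error in osteoclasts is widest for Ocstamp, and 2 pools per genotype limit every genotype value.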

Other observations

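Ttn, the gene of the muscle protein titin and 1 of 5 muscle markers read as a check on the label, was at 652 to 830 CPM in osteoclasts and at 11.5 to 81.9 CPM in the other annotated nuclei. The ranges of the other 4 muscle markers overlapped between the classes, with Acta1 at 5.53 to 104 and 8.56 to 130 CPM and Ckm at 0.74 to 20.5 and 1.67 to 19.4 CPM. Ttn was singled out after its values were seen.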
